A study of Homo sapiens with 4 samples.

Results

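The genes described here are 54 genes of DNA replication, a set made up of the proteins that license and fire origins, run the replication fork, supply deoxynucleotides and switch these genes on at the G1/S boundary. They were listed by function, but with earlier results of these data known. A gene was kept where 2 or more libraries had 10 or more counts. The tables hold 20263 genes. All 54 listed genes were found in them, met this rule and passed the filter of the test. The study treated HCT116, an established human colorectal carcinoma line labelled wild type, with HJ-23 at 30 µM or with 0.1% DMSO, the solvent, for 24 hours, and sequenced 2 libraries of each group. HJ-23 is described by the submitters as a derivative of piperine, the pungent alkaloid of pepper; the treatment field of the treated samples reads HJ-25, while their titles read HJ-23, and the titles are followed. All results come from 1 cell line, and nothing in the labels tells if replicate libraries were grown as separate cultures. The p-values therefore cover library-to-library spread that could be purely technical.

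Replication is prepared in G1, when the origin recognition complex, CDC6 and CDT1 load the ring-shaped MCM2-7 helicase onto DNA in an inactive form. At the start of S phase CDC45 and the GINS complex join MCM2-7 to make the active helicase, and polymerases, the sliding clamp PCNA and its loader follow. Many of these genes are transcribed by E2F factors when cells pass from G1 into S phase, and their mRNA levels are widely used as a readout of proliferation in carcinoma cells.

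Promoter sequence was not part of the rule for listing members, and a few promoters are shown first. The rule did take G1/S genes, many of which E2F factors transcribe, so E2F words are no independent property of the set. Promoter windows from RefSeq (GRCh38.p14, 250 bases before to 50 after the start of the gene) were found for 47 members; those without one were MCM4, MCM5, GINS4, POLD3, RPA2, RPA3 and E2F8. The windows were searched on both strands for the E2F-type words TTTCCCGC, TTTCGCGC, TTTGCCGC and TTTGGCGC, some of which can overlap each other on opposite strands. At least 1 match was found in 23 of the 47 windows, or 48.9%, against 682 of 15286 windows of genes in the tables, or 4.46%. The 160 bases before the start are printed 5′ to 3′ on the strand of the gene for 6 members that hold a match. MCM6 and MCM7 among them share a role. The matches are in capitals.
CDT1, chr16:88803629-88803788, plus strand: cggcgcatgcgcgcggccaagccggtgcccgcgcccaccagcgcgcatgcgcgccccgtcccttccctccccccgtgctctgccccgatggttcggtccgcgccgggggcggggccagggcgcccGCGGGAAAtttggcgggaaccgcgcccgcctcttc
MCM6, chr2:135876444-135876603, minus strand: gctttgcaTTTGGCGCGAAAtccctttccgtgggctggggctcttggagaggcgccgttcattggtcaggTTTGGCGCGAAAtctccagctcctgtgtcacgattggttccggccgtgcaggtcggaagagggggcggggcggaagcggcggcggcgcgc
MCM7, chr7:100101398-100101557, minus strand: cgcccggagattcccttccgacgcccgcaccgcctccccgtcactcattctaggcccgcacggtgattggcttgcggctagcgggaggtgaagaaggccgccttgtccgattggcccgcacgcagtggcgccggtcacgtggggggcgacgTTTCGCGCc
PCNA, chr20:5126623-5126782, minus strand: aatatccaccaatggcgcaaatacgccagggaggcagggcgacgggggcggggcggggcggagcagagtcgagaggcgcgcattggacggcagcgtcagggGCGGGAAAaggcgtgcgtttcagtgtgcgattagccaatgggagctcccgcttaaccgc
TYMS, chr18:657493-657652, plus strand: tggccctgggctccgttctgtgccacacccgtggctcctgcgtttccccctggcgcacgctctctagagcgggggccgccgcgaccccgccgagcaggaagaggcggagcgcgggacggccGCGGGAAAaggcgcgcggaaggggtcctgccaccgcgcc
E2F1, chr20:33686386-33686545, minus strand: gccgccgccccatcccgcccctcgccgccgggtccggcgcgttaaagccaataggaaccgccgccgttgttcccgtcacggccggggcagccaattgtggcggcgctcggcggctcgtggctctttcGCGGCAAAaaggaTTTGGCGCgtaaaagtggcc

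In MCM6 the word occurs as 2 longer blocks, each read as a match on both strands, which gives 4 matches. E2F1 holds 2 matches in its own promoter. The word CCAAT, the site of the factor NF-Y, was found in 28 of the 47 members' windows (59.6%) and in 36.6% of all windows, and TTTGAA, the core of the CHR element of mitotic genes, in 1 of 47 (2.13%) and 12.1%. RRM2, the member with the smallest p below, has no E2F word in its window but holds 3 copies of CCAAT. This number is not particular to RRM2. CDC6, MCM3, MCM7, PCNA, E2F1 and CLSPN also have 3 copies, and CDC45 and CHAF1A have 4. CCAAT was not marked in the windows printed above, and the RRM2 copies are in capitals here.
RRM2, chr2:10122579-10122738, plus strand: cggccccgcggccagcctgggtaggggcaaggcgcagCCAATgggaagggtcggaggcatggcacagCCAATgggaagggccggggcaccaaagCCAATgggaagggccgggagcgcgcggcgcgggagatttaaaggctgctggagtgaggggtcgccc
A match describes the letters only and is no evidence of a bound factor, and a window without a match says nothing about the factor.

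Total counts were between 29769568 and 34831207 per library, and members took from 0.274% to 0.301% of them. Every member had at least 162 counts in each library. Of 10 colorectal epithelial markers 6 were above 1 CPM (counts scaled to the size of the library, and below also to its composition by TMM) in all libraries, and VIL1, CDX1, LGALS4 and CEACAM5 were not; 0 of 5 leukocyte markers and 0 of 3 endothelial markers reached that level. Of 6 fibroblast markers only COL1A1 did, and 3 were at 0 in all libraries.

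Levels between genes were compared as CPM per kb of transcript (GENCODE 29), averaged over the 4 libraries. TK1, the thymidine kinase of the salvage pathway, was highest at 127.9 CPM per kb, followed by MCM7 at 80.1, RRM2 at 73.5, PCNA at 72.7 and TYMS at 55.1. Lowest were MCM10 at 1.95, CLSPN at 2.33, POLD3 at 2.41 and POLA1 at 2.53. MCM7, RRM2 and PCNA overlapped in their ranges over the libraries, so their order among themselves is not resolved. TK1 was above all 3 in every library. RRM2 also overlapped TYMS, at 57.0 against 65.2 CPM per kb for TYMS in HJ-23 replicate 2. The lowest members overlapped one another too, and in HJ-23 replicate 1 GINS4 was below MCM10 (1.19 against 1.99).

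**Figure D1:**
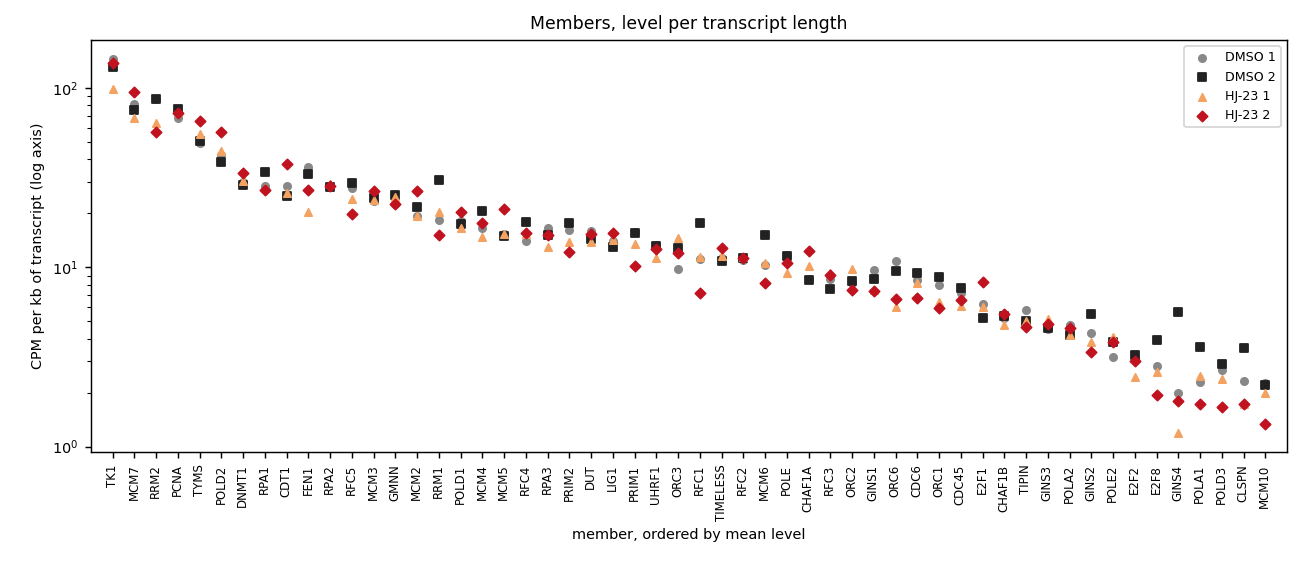
Level of each of the 54 members per kb of transcript (vertical log axis, CPM per kb), ordered by the mean over 4 libraries, with 1 symbol per library. TK1 leads at a mean of 127.9 and MCM10 is last at 1.95; for most members the 4 symbols lie close together relative to the spread between genes.

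Did the replication genes differ between HJ-23 and DMSO? No member passed the test. With edgeR's quasi-likelihood test over 14062 genes, 0 of 54 members had an adjusted p below 0.05, where 0.0853% of all genes tested did (0.0569% higher and 0.0284% lower), and the smallest adjusted p of a member was 0.279 (RRM2). DESeq2 also called 0 members, with a smallest adjusted p of 0.0672, while it called 311 of 13476 genes with an adjusted p (2.31%). At an unadjusted p below 0.05 there were 0 members higher and 6 lower, against 6.77% and 5.25% of all genes. The 6 were RRM2, ORC6, CLSPN, FEN1, ORC1 and GINS4. Counting both directions, 1690 of the 14062 genes had such a p. Members with such a p without HJ-23 replicate 1 went both ways. CDT1, MCM5, POLD2, TYMS and CHAF1A were higher, with log2 fold changes from 0.37 to 0.50. The others, ORC1, ORC6, CDC6, MCM10, RFC5, POLD3, PRIM1, PRIM2, FEN1, RRM2 and E2F8, were lower. The 2 fits given next had the fewest and the most members with such a p in either direction, of those leaving out 1 library. Leaving out DMSO replicate 2 left 2 such members (5.99% of all genes in that fit), and leaving out HJ-23 replicate 1 gave 16 (24.5% of all genes).

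The sizes of the differences were small for most members. The median log2 fold change (HJ-23 over DMSO, written log2FC beside single genes) was -0.16 over the members and 0.0086 over all genes tested, with 33 of 54 members negative where 49.0% of all genes were. Leaving out each library in turn put the members' median between -0.18 and -0.093. The 95% interval of the fold change lay within a 2-fold change in either direction for 43 members (79.6%), against 72.6% of all genes tested and 84.8% of the 10238 genes within the members' range of mean level. The other 11 were ORC6, MCM6, MCM10, GINS4, RFC1, POLA1, POLD3, FEN1, RRM1, E2F8 and CLSPN, whose intervals reach past a 2-fold decrease. None reached past a 2-fold increase. The plot of fold changes with intervals shows this range.

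**Figure D2:**
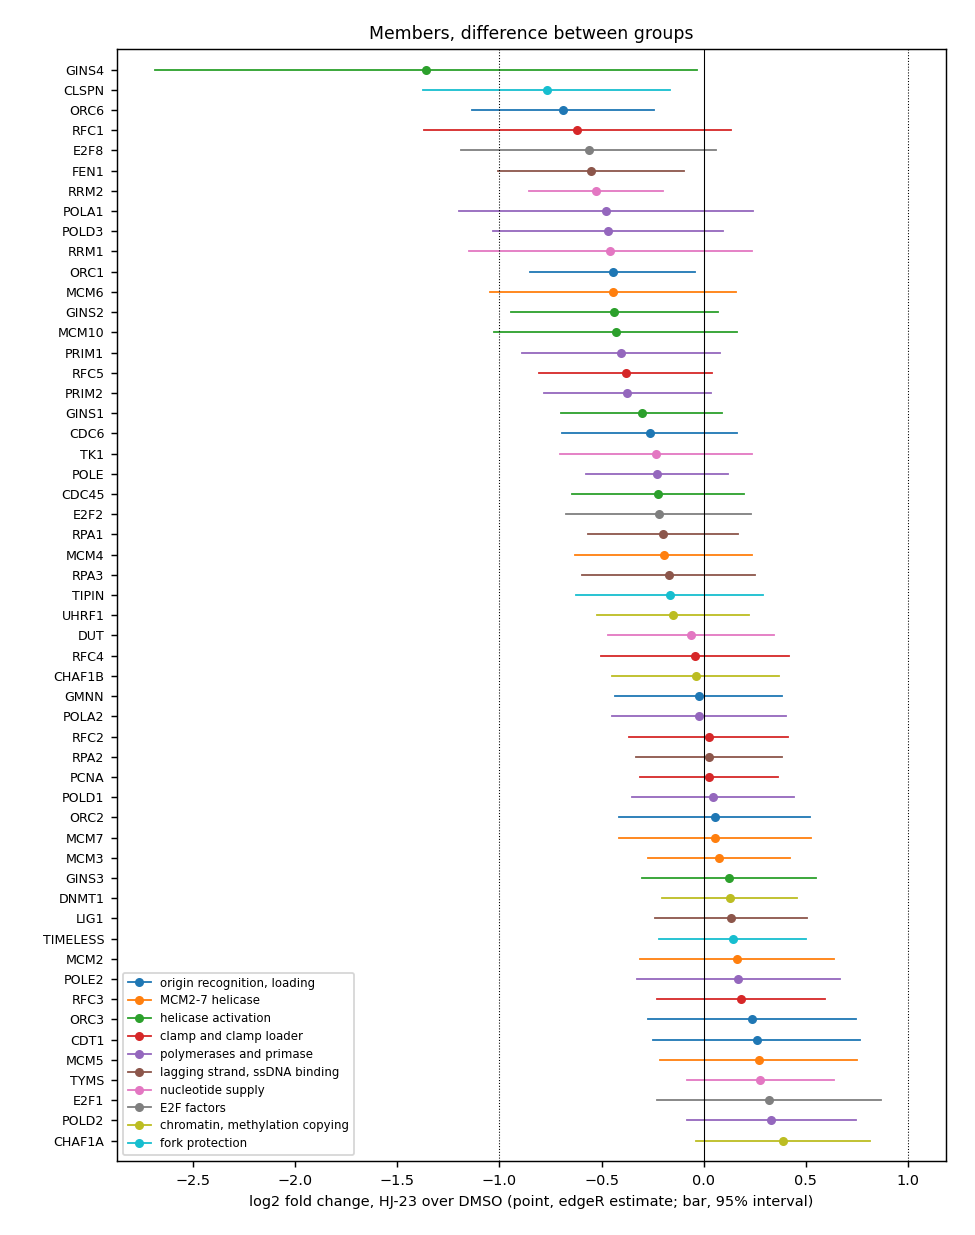
Log2 fold change of each member, HJ-23 over DMSO (horizontal axis; point, edgeR estimate; bar, 95% interval), sorted and coloured by role, with dotted lines at a 2-fold change. Estimates run from -1.36 for GINS4 to 0.39 for CHAF1A, and 11 bars cross the line of a 2-fold decrease while 0 cross that of a 2-fold increase.

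Both HJ-23 libraries lay below both DMSO libraries for 21 members and above them for 9, where 21.2% and 24.8% of all genes did so. The difference between group means was larger than the difference between replicates in each group for 16 members (29.6%), against 32.6% of all genes. Summed over the members, the levels were 2946 and 3061 CPM in the DMSO libraries and 2663 and 2930 CPM in the HJ-23 libraries, so the treated libraries were lower, the second of them by less than the DMSO libraries differ from each other. In bulk RNA, fewer cells in S phase and less of these mRNAs per cell cannot be told apart.

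**Figure D3:**
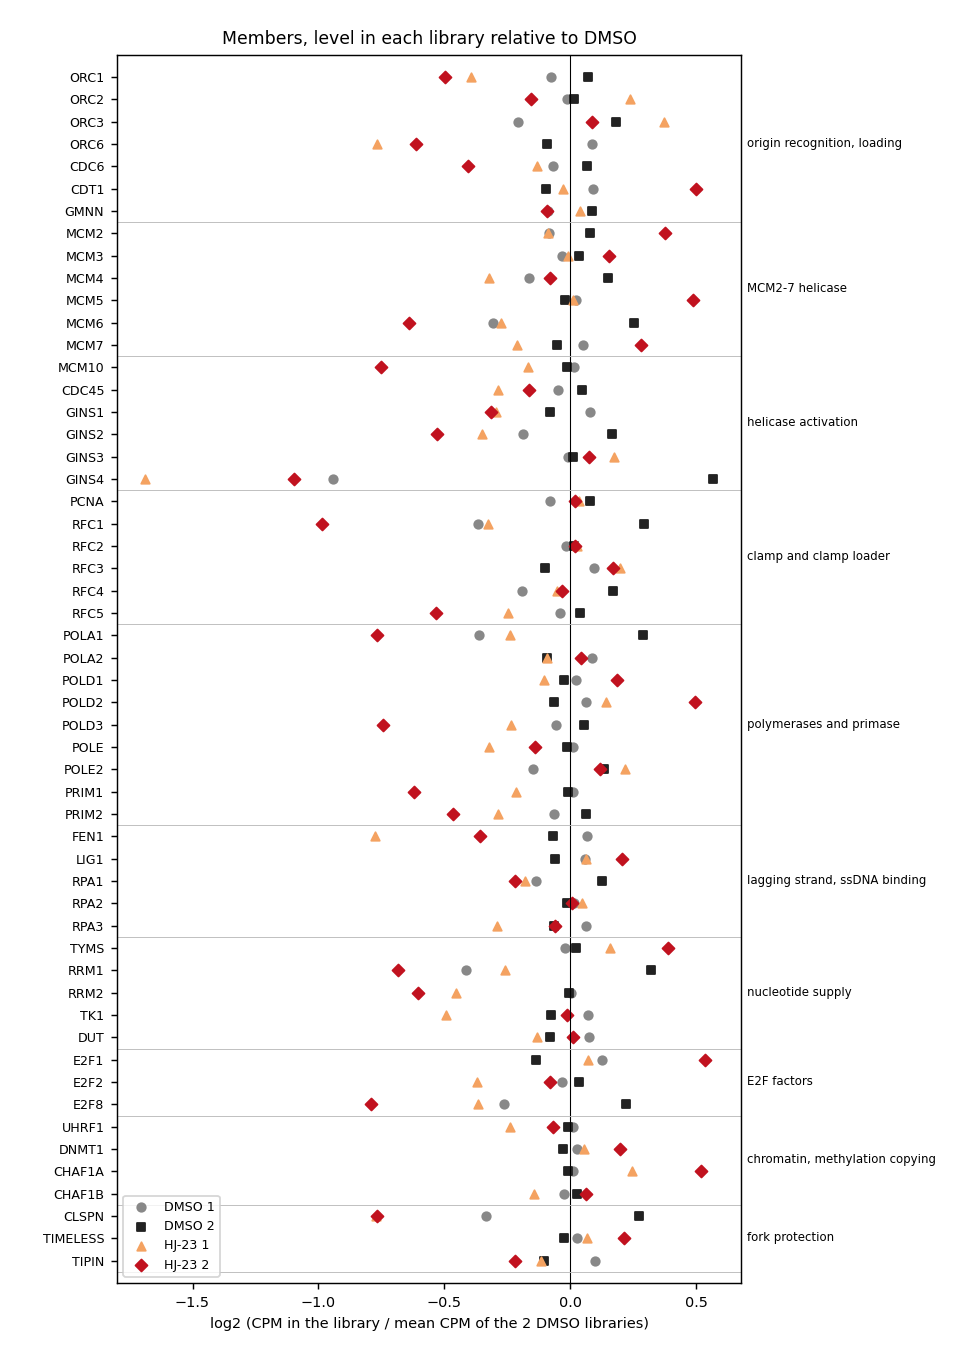
Log2 of each member's CPM in a library over the mean CPM of the 2 DMSO libraries, by role, with 1 symbol per library. HJ-23 symbols lie left of both DMSO symbols for 21 members, among them RRM2, ORC6 and FEN1, and right of both for 9.

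Origin recognition and loading factors split. ORC6, the smallest subunit of the origin recognition complex, was at 17.6 and 15.6 CPM in DMSO and 9.76 and 10.8 CPM in HJ-23, so the groups did not overlap (log2FC -0.69, SE 0.18, adjusted p = 0.299, edgeR). ORC1, the cell-cycle-regulated ATPase subunit, was at 25.1 and 27.8 CPM in DMSO and 20.1 and 18.7 CPM in HJ-23 (log2FC -0.44, SE 0.16, adjusted p = 0.388, edgeR). Both were lower in each treated library without passing the test. ORC2 and ORC3, core subunits, had log2 fold changes of 0.053 and 0.24, with overlapping groups.

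CDC6, which loads MCM2-7 together with the origin recognition complex, was at 40.9 and 44.9 CPM in DMSO and 39.1 and 32.4 CPM in HJ-23 (log2FC -0.26, SE 0.17, adjusted p = 0.562, edgeR). Its partner CDT1 was at 91.5 and 80.6 CPM in DMSO and 84.4 and 121.6 CPM in HJ-23 (log2FC 0.26, SE 0.21, adjusted p = 0.633, edgeR), so only the second treated library was high, and without it the log2 fold change was -0.052. GMNN, geminin, the inhibitor of CDT1, was at 28.3 and 32.0 CPM in DMSO and 30.9 and 28.3 CPM in HJ-23, with overlapping groups.

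The MCM2-7 helicase subunits had overlapping groups in 6 of 6 cases, with a median log2 fold change of 0.066. Of all genes, 24.8% had both HJ-23 libraries above both DMSO libraries and 21.2% below, and the groups of the rest overlapped. MCM7 was at 241 and 224 CPM in DMSO and 201 and 282 CPM in HJ-23 (log2FC 0.056, SE 0.19, adjusted p = 0.923, edgeR). MCM2 was at 70.0 and 78.5 CPM in DMSO and 69.9 and 96.3 CPM in HJ-23 (log2FC 0.16, SE 0.19, adjusted p = 0.760, edgeR). In both, HJ-23 replicate 2 was above both DMSO libraries. HJ-23 replicate 1 was below them for MCM7 and almost equal to DMSO replicate 1 for MCM2. Without HJ-23 replicate 2 the log2FC was -0.23 for MCM7 and -0.11 for MCM2. MCM3, MCM4 and MCM5 ran from -0.20 to 0.27. MCM6 stood lowest of the subunits, at 38.4 and 56.6 CPM in DMSO and 39.3 and 30.5 CPM in HJ-23, where the DMSO libraries differed from each other more than the group means did.

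Of the 6 factors that turn the loaded ring into an active helicase, 5 had both treated libraries below both DMSO libraries, where 21.2% of all genes did: MCM10, CDC45, GINS1, GINS2 and GINS4. Their log2 fold changes ran from -1.36 to -0.22, and none passed. GINS1, the GINS subunit with the highest level per length, was at 31.3 and 28.1 CPM in DMSO and 24.2 and 23.9 CPM in HJ-23 (log2FC -0.30, SE 0.16, adjusted p = 0.483, edgeR). CDC45, the helicase cofactor, was at 14.97 and 15.99 CPM in DMSO and 12.7 and 13.8 CPM in HJ-23. In both, the replicates lay closer together than the group means. GINS2 was at 11.5 and 14.7 CPM in DMSO and 10.2 and 9.04 CPM in HJ-23, and MCM10, an activator of the assembled helicase, at 10.4 and 10.2 CPM against 9.14 and 6.10 CPM. GINS3 was the exception, with a log2 fold change of 0.12.

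GINS4 had the largest fold change of all members, and it rests on 1 library. It was at 7.66 and 21.8 CPM in DMSO and 4.57 and 6.89 CPM in HJ-23 (log2FC -1.36, SE 0.53, adjusted p = 0.406, edgeR). DMSO replicate 2 stands far above the other libraries. Without it the log2 fold change was -0.44, and without DMSO replicate 1 it was -1.93 and passed (adjusted p = 7.17e-06, edgeR).

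The sliding clamp and 3 of the loader subunits had log2 fold changes near 0. PCNA, the ring that tethers polymerases to DNA, was at 92.4 and 103 CPM in DMSO and 100.2 and 99.1 CPM in HJ-23 (log2FC 0.026, SE 0.14, adjusted p = 0.953, edgeR), with a 95% interval from -0.31 to 0.36. RFC2, RFC3 and RFC4, small subunits of the clamp loader, had log2 fold changes from -0.043 to 0.18. RFC5 was at 46.0 and 48.6 CPM in DMSO and 39.9 and 32.7 CPM in HJ-23, below in both treated libraries. RFC1, the large loader subunit, was at 54.3 and 85.8 CPM in DMSO and 55.9 and 35.3 CPM in HJ-23, so the first libraries of each group were alike; its log2 fold change was -0.62 and -0.28 without DMSO replicate 2.

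Polymerase and primase subunits ran from -0.48 to 0.33, 3 of 9 positive. POLD2, an accessory subunit of the lagging-strand polymerase delta, had the highest level per length, at 90.7 and 83.1 CPM in DMSO and 95.98 and 122.6 CPM in HJ-23 (log2FC 0.33, SE 0.17, adjusted p = 0.476, edgeR), and without HJ-23 replicate 2 the log2FC was 0.12. POLE, the catalytic subunit of the leading-strand polymerase, was at 92.1 and 90.7 CPM in DMSO and 73.1 and 82.9 CPM in HJ-23. The primase subunits PRIM1 and PRIM2, which start each Okazaki fragment, were both lower in each treated library, with log2 fold changes of -0.40 and -0.37. POLD3, a polymerase delta subunit also used in break-induced replication, was lower in both as well, at -0.47. POLA1, the catalytic subunit of polymerase alpha, was at 12.6 and 19.7 CPM in DMSO and 13.7 and 9.47 CPM in HJ-23, with overlapping groups, and POLA2, POLD1 and POLE2 ran from -0.025 to 0.17.

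Among lagging-strand and single-strand binding proteins, FEN1, the flap nuclease that trims Okazaki fragments, was at 83.1 and 75.9 CPM in DMSO and 46.4 and 61.95 CPM in HJ-23 (log2FC -0.55, SE 0.19, adjusted p = 0.360, edgeR). FEN1 was the only one of the 5 with an unadjusted p below 0.05. LIG1, the ligase that seals these fragments, had a log2 fold change of 0.13. RPA1, the large subunit of the single-strand binding complex, was at 124 and 148 CPM in DMSO and 120.1 and 117 CPM in HJ-23 (log2FC -0.20, SE 0.15, adjusted p = 0.609, edgeR), and RPA2 and RPA3 had log2 fold changes of 0.025 and -0.17.

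The genes of nucleotide supply differed in sign, with 1 of 5 positive. RRM2, the small subunit of ribonucleotide reductase that peaks in S phase, was at 299 and 297 CPM in DMSO and 218 and 196 CPM in HJ-23 (log2FC -0.53, SE 0.13, 95% interval from -0.86 to -0.20, adjusted p = 0.279, edgeR). It had the smallest p of the members (0.00764), and its DMSO libraries were almost equal. RRM1, the large subunit of the same enzyme, was at 56.4 and 94.0 CPM in DMSO and 62.8 and 46.7 CPM in HJ-23, with overlapping groups. TYMS, thymidylate synthase, lay above DMSO in both treated libraries, at 81.7 and 84.0 CPM in DMSO and 92.3 and 108 CPM in HJ-23 (log2FC 0.28, SE 0.15, adjusted p = 0.484, edgeR); without HJ-23 replicate 2 the log2FC was 0.13. TK1 was at 237 and 214 CPM in DMSO and 160 and 223 CPM in HJ-23 (log2FC -0.23, SE 0.19, adjusted p = 0.640, edgeR); HJ-23 replicate 1 alone was low, and without it the log2FC was -0.034. DUT, which removes dUTP, had a log2 fold change of -0.061.

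The E2F factors did not share a direction. E2F1, an activator of the G1/S program, was at 15.6 and 13.1 CPM in DMSO and 15.1 and 20.8 CPM in HJ-23 (log2FC 0.32, SE 0.22, adjusted p = 0.583, edgeR), with overlapping groups; leaving out HJ-23 replicate 2 gave 0.045, and the GC correction described below 0.12. E2F2, another activator, was below DMSO in both treated libraries, with a log2 fold change of -0.22. E2F8, an atypical family member that represses E2F targets, was at 9.88 and 13.8 CPM in DMSO and 9.19 and 6.86 CPM in HJ-23, a log2 fold change of -0.56.

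Genes that copy chromatin and DNA methylation behind the fork had a 95% interval within 2-fold in 4 of 4 cases. This held for 72.6% of all genes tested and 84.8% of those within the members' range of mean level. DNMT1, the maintenance methyltransferase, was at 161 and 155 CPM in DMSO and 164 and 181 CPM in HJ-23 (log2FC 0.13, SE 0.14, adjusted p = 0.725, edgeR). CHAF1A, the large subunit of the histone chaperone CAF-1, had the highest fold change of all members in the fit of 4 libraries, at 28.8 and 28.4 CPM in DMSO and 33.9 and 41.0 CPM in HJ-23 (0.39). With the GC correction it was 0.25, below ORC3 at 0.31, and without HJ-23 replicate 2 it was 0.22, below ORC3 at 0.35. Its partner CHAF1B had a log2 fold change of -0.039 and UHRF1, which brings DNMT1 to hemimethylated DNA, one of -0.15.

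In the fork protection group, CLSPN, claspin, the adaptor that carries the ATR signal to CHK1, was at 11.1 and 16.9 CPM in DMSO and 8.21 and 8.22 CPM in HJ-23 (log2FC -0.77, SE 0.25, adjusted p = 0.351, edgeR). The treated libraries were nearly equal and below DMSO, but the DMSO libraries were apart, and without DMSO replicate 2 the log2 fold change was -0.46. TIMELESS, its partner at the fork, was at 57.6 and 55.7 CPM in DMSO and 59.3 and 65.6 CPM in HJ-23 (log2FC 0.14, SE 0.15, adjusted p = 0.719, edgeR). TIPIN, which binds TIMELESS, had a log2 fold change of -0.17.

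The members' differences varied with the GC content of their transcripts. Across the 54 members, which share the same 4 libraries, Spearman's rho between GC content and log2 fold change was 0.397 (Pearson 0.399), and across 14047 genes it was 0.382. Between the HJ-23 libraries alone, replicate 2 over replicate 1, the members' rho was 0.787, and between the DMSO libraries it was -0.342; across all genes these were 0.644 and -0.359. The 27 members with the lower GC content (39.1% to 48.1%) had a median log2 fold change of -0.37 with 21 negative, and the 27 with the higher GC content (48.1% to 64.9%) had 0.047 with 12 negative. The part of GC content in the difference between treatments was not tested. As examples chosen after their values were seen, MCM2, MCM5, MCM7, CDT1 and E2F1 (56.6% to 64.9% GC) were each higher in HJ-23 replicate 2 than in replicate 1, and RFC1, RRM1, POLA1 and MCM6 (41.7% to 43.1%) were lower.

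With a correction for GC content and length in the fit, the members' median was -0.16, with 35 of 54 negative, and rho with GC content was 0.149. The correction was fitted to these same libraries. It takes out GC-related differences between libraries whatever their source, so the lower rho follows from it and is no test. The lower-GC members then had a median of -0.32 and the higher-GC members one of -0.045. In the corrected fit 0 members passed, where 0.242% of all genes did. An unadjusted p below 0.05 was found for 14 members, all of them lower, and for 8.48% of all genes in that direction. FEN1 (-0.63, SE 0.13), RRM2 (-0.45, SE 0.096), ORC6 (-0.68, SE 0.15), TK1 (-0.41, SE 0.099) and ORC1 (-0.48, SE 0.12) had the smallest of these p-values. TK1 was not among the 6 without the correction.

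**Figure D4:**
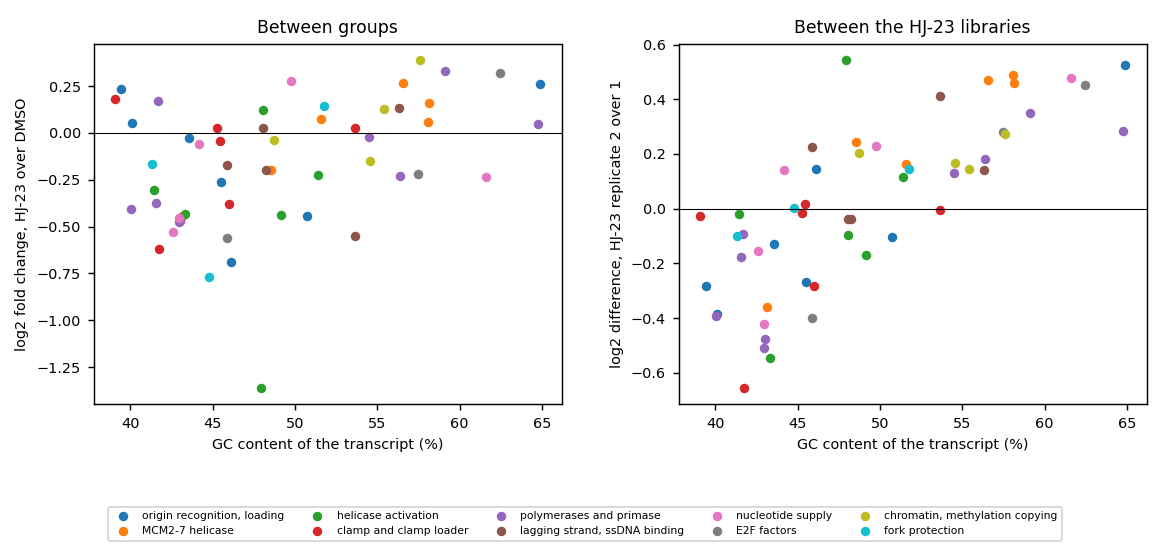
Transcript GC content (horizontal axis, %) of the 54 members against the log2 fold change between groups (left) and the log2 difference between the HJ-23 libraries, replicate 2 over 1 (right), coloured by role. Both are higher at higher GC content, with a Spearman rho of 0.397 on the left and 0.787 on the right.

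Members with an E2F word in the promoter window had a median log2 fold change of 0.056 (23 genes) and those without one -0.21 (24 genes). Their median transcript GC contents were 49.8% and 46.1%, and the part of GC content in this difference was not tested.

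The rest of the pathway, from a list of 90 further genes all of which were tested, had no call either: 0 passed over all genes, 6 were higher and 7 lower at an unadjusted p below 0.05, near the 6.77% and 5.25% of all genes, and the median log2 fold change was 0.015. PAICS, a bifunctional enzyme of purine synthesis, came closest, at 235 and 272 CPM in DMSO and 105 and 103 CPM in HJ-23 (log2FC -1.28, SE 0.14, adjusted p = 0.0735, edgeR). Its treated libraries were well below and close together, and it passed with DESeq2 (adjusted p = 3.77e-10), without DMSO replicate 1 (adjusted p = 5.37e-04, edgeR) and without DMSO replicate 2 (adjusted p = 0.00661, edgeR). Without HJ-23 replicate 1 or 2 it did not pass (adjusted p = 0.127 and 0.218, edgeR). CAD, which starts pyrimidine synthesis, was at 103 and 100.3 CPM in DMSO and 133 and 168 CPM in HJ-23 (log2FC 0.57, SE 0.16, adjusted p = 0.312, edgeR). TICRR, treslin, needed to load CDC45, was at 44.7 and 40.9 CPM in DMSO and 28.5 and 30.2 CPM in HJ-23 (log2FC -0.54, SE 0.16, adjusted p = 0.320, edgeR), and KAT7, a histone acetyltransferase that binds ORC1, was at 62.3 and 67.0 CPM against 50.1 and 38.2 CPM (log2FC -0.55, SE 0.19, adjusted p = 0.361, edgeR).

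By list, the further nucleotide synthesis genes had 21 of 30 positive, with a median of 0.14, and the further origin firing genes 4 of 11 positive, with a median of -0.18. Further fork machinery had a median of -0.058 over 22 genes, chromatin copying one of -0.18 over 10, E2F and pocket proteins one of -0.084 over 10, and origin and licensing one of 0.050 over 7. These medians are set beside 0.0086 for all genes tested and describe these libraries only.

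Some members' values are uncertain because reads may be shared. In GENCODE 29, 14 members have exon bases in common with another gene in the tables, most of all TYMS with ENOSF1 on the opposite strand (967 bases), then POLD1 with ENSG00000142539 on the same strand (426) and MCM7 with AP4M1 on the opposite strand (392). FEN1 shares 166 bases with TMEM258 and 49 with FADS2. Named pseudogene copies exist for 9 members, among them 8 for DUT and 3 each for PCNA, RPA2 and RRM2.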

How the data were processed

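RNA-seq of 4 libraries was deposited as 1 table each. Per the labels these are raw counts, and the deposited counts are whole numbers per Ensembl gene without normalization. Tools listed in the submitters' processing notes, without versions, are HISAT2, RSEM, Trimmomatic, FastQC and bedtools; for the build, annotation and strand setting, the sources used here give nothing. A name table matched 20148 of 20263 identifiers to symbols. Of values from 1 to 8, 69.6% to 72.3% were even, so both mates of a pair may have been counted.

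Counts were fitted with edgeR 4.0.16 in R 4.3.3 (TMM, filterByExpr, robust quasi-likelihood F-test, legacy form, Benjamini-Hochberg over 14062 genes); the biological coefficient of variation was 19.6%. Standard errors were taken as the size of the log2 fold change divided by the root of F. The 95% intervals use 2 residual degrees of freedom plus prior ones set for each gene (median 3.98). DESeq2 1.42.0 was an alternative, and both were tested on simulated data. The simulated counts held no GC-related differences between replicates, which these libraries have, so they do not show how the tests behave with such differences. A permutation of 2 against 2 libraries cannot give a two-sided p below 0.333, so none was run. Length and GC content are those of the principal transcript in GENCODE 29; the GC correction was a loess offset per library. Replicates were not copies of each other: their chi-square statistics per degree of freedom were 36.5 (DMSO) and 70.7 (HJ-23). HJ-23 replicate 1 gave 57.4 against DMSO replicate 1 and 66.8 against DMSO replicate 2, both below the value between the HJ-23 libraries. HJ-23 replicate 2 gave 88.2 and 138.9.

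The members and lists were chosen with earlier results of these data known. Statistics are given for members with an unadjusted p below 0.05, the member of each role with the highest level per length, MCM2, CDC6, CDT1, PCNA, RRM2, TYMS and E2F1, and the 4 further genes with the smallest p; other members are given by level or fold change.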

Additional observations from a re-analysis of the deposited data

How the results depend on the processing

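With 0 members and 0 of the 90 further genes called, RLE or upper quartile scaling, the filter at 10 counts in 2 libraries and the other edgeR form called 0 of each, and the GC and length offset, with or without the block, likewise. DESeq2 and no filter called 0 members and 1 further gene, PAICS. Replicate numbers are shared by title only, and the correlation across genes of the replicate differences in the groups was -0.237. With the replicate block 1 member (GINS4, adjusted p = 0.00778, edgeR) and 2 further genes were called, and 294 of all genes against 12. With the HJ-23 numbers crossed, chosen after seeing the data, the replicate block gave 5 members, 7 further genes and 966 of all genes. Leaving out 1 library gave 0 to 1 members, 0 to 2 further genes and a members' median from -0.18 to -0.093; where 1 library remains in a group it is assumed to vary like the other group. Without either HJ-23 library edgeR called 0 of all genes, without DMSO replicate 1 it called 273 and without DMSO replicate 2 it called 157. With the GC and length offset the sign turned for GMNN (0.000425, with the block 0.00177), MCM7 (-0.096, with the block -0.104), RFC2 (-0.045, with the block -0.046) and POLD1 (-0.191, with the block -0.191); the cause was not tested. Leaving out a library turned the sign of 14 members, with ranges from -0.052 to 0.084 (PCNA), -0.136 to 0.069 (POLA2), -0.160 to 0.019 (DUT), -0.111 to 0.040 (GMNN), -0.235 to 0.262 (MCM7), -0.212 to 0.124 (RFC4), -0.128 to 0.165 (POLD1), -0.014 to 0.038 (RPA2), -0.175 to 0.211 (ORC2), -0.170 to 0.041 (CHAF1B), -0.052 to 0.479 (CDT1), -0.113 to 0.356 (MCM2), -0.034 to 0.136 (MCM3) and -0.013 to 0.467 (MCM5). RRM2, ORC6, FEN1, CLSPN, ORC1 and GINS4 were negative under all 14 alternatives. So were many other members, among them PRIM2, RFC5, POLE, GINS1 and CDC45, so this does not set them apart. With 2 libraries a group, differences above 2-fold could miss the threshold: PAICS at -1.28 and GINS4 at -1.36 did.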

Other observations

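Some members differed more between the DMSO libraries than most members did between treatments. DMSO replicate 2 over replicate 1 was 1.45 on the log2 scale for GINS4, 0.73 for RRM1, 0.65 for RFC1, 0.63 for POLA1, 0.59 for CLSPN and 0.56 for MCM6, genes chosen here for these values. Between the HJ-23 libraries, replicate 2 over replicate 1, RFC1 was at -0.65, MCM10 at -0.55 and POLA1 at -0.51, while GINS4 was at 0.54 and CDT1 at 0.52.

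The 28 members with CCAAT in the promoter window had a median log2 fold change of -0.25 and a median transcript GC content of 45.8%. The 19 with a window but no CCAAT had 0.024 and 53.6%. The part of GC content in this difference was not tested.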
